A study of Mus musculus with 6 samples.

Results

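Aminoacyl-tRNA synthetases are the enzymes that join each amino acid to its transfer RNA. Their genes were followed by bulk RNA sequencing in granulocyte-monocyte progenitors, which give rise to neutrophils and monocytes in the marrow. Members were chosen by symbol, as the synthetase genes named after a single amino acid letter together with Eprs and the scaffold genes Aimp1 and Aimp2. This gave 39 of the 24205 genes in the deposited table: 20 cytosolic enzymes, 17 mitochondrial enzymes whose symbols end in 2, and 2 scaffold proteins. The progenitors came from bone marrow of C57BL/6 mice that had a sham operation (3 libraries) or hindlimb ischemia, an interruption of the blood supply to a hind leg (3 libraries). The labels give no time after surgery, age, sex or sorting gate, and leave unsaid whether libraries came from different animals. The p-values therefore cover the spread among these 6 libraries alone, which may be technical. Because the RNA is from bulk cells, fewer cells of a type and less RNA per cell cannot be told apart.

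Each synthetase reads a particular amino acid and its transfer RNA, so the family sets how messenger RNA is turned into protein. For most amino acids the cytosol and the mitochondrion use separate enzymes, all encoded in the nucleus. Gars and Kars serve both compartments from a single gene, and Eprs fuses the enzymes for glutamate and proline. In animals several cytosolic enzymes are held in a multisynthetase complex, for which Aimp1 and Aimp2 are scaffolds. When amino acids run short, uncharged transfer RNA activates the kinase Gcn2 (gene Eif2ak4), translation of the transcription factor Atf4 increases, and Atf4 activates many cytosolic synthetase genes along with genes of amino acid synthesis and transport.

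Expression was given as TPM, reads scaled by gene length and library total, so that levels of different genes can be set side by side. The totals recovered from TPM ran from 32548023 to 41624578 reads per library, and the members held between 314 and 79074 reads in a library. For 21 members, Lars2 with the highest number among them, reads are known only up to a common factor. The smallest fitting numbers were taken, so the totals and the highest number are lower bounds. All 10 markers of granulocyte-monocyte progenitors, among them Mpo, Elane and Cd34, reached 1 TPM in every library, with summed levels of 25345 to 30488 TPM in sham and 24549 to 30200 TPM after ischemia. Summed levels of 2 other marker lists did not overlap between the groups. The 8 erythroid markers, led by the globins, summed to 145.0 to 177.6 TPM in sham and 25.9 to 85.2 TPM after ischemia, with 6 of 8 at 1 TPM or more in every library. The 8 B-lymphoid markers summed to 446.2 to 521.4 TPM in sham and 294.7 to 404.0 TPM after ischemia, mostly from Ighm, with 3 of 8 at 1 TPM or more in every library and the defining gene Pax5 at 0.07 TPM or less. Their part in the results on synthetases was not tested.

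All 39 members reached the level needed for testing, at least 1 TPM in 3 or more libraries. Among cytosolic enzymes the mean over the 6 libraries ran from 18.4 TPM for Cars (cysteine) to 191 TPM for Dars (aspartate), with a median of 79.3 TPM. Nars (asparagine) was second, at 204, 161 and 169 TPM in sham libraries 1 to 3 and 219, 180 and 148 TPM in hindlimb ischemia libraries 1 to 3. Vars (valine) was at 173, 116 and 135 TPM in sham and 163, 111 and 88.1 TPM after ischemia. Within each group the libraries of Nars and Vars spread more widely than the group means differed, and the groups overlapped. Gars (glycine) was at 147, 110 and 119 TPM in sham and 151, 115 and 97.0 TPM after ischemia. Kars (lysine) was at 142, 115 and 107 TPM in sham and 137, 110 and 95.5 TPM after ischemia. For both of these enzymes library 1 was the highest in its group, and the groups overlapped.

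**Figure D1:**
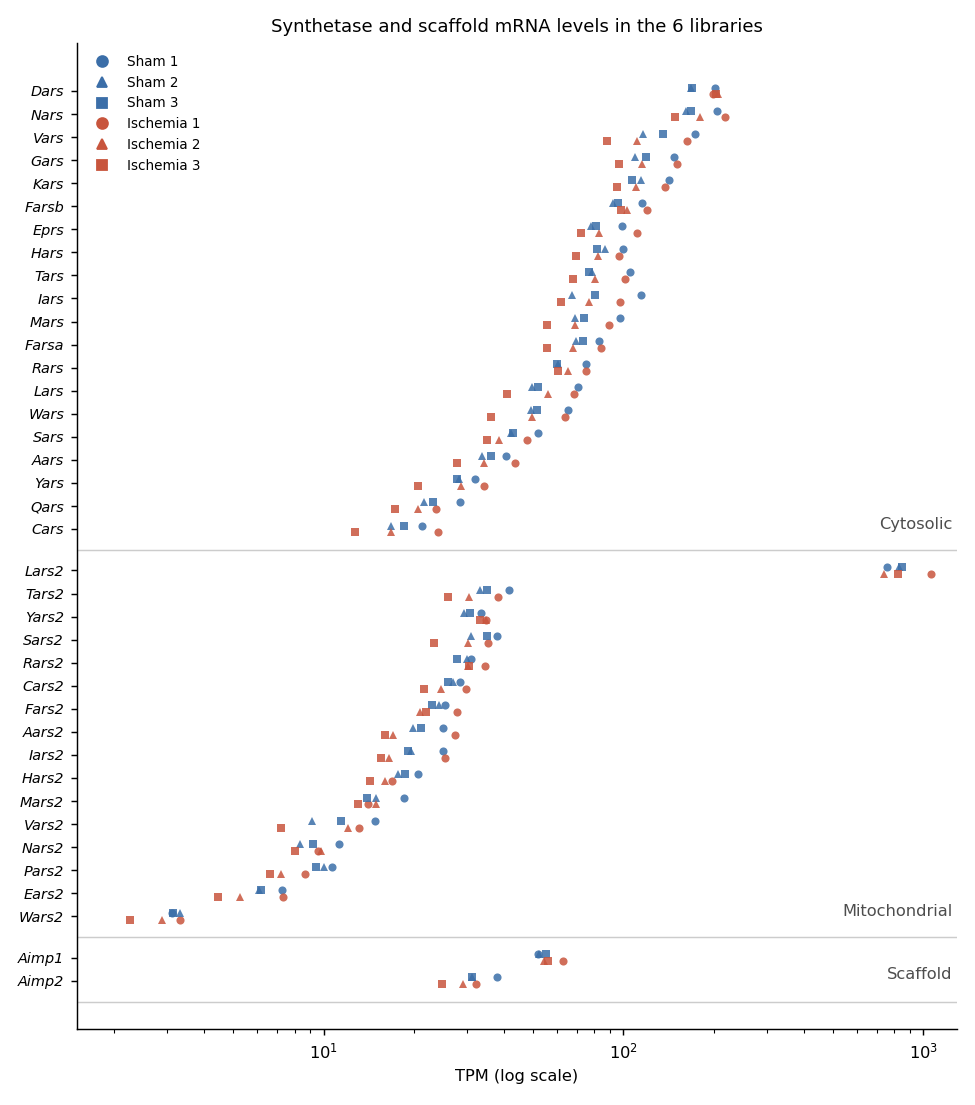
Expression of 38 synthetase and scaffold genes in TPM on a log axis, 1 point per library, for sham and hindlimb ischemia. Most cytosolic enzymes lie above the mitochondrial ones, with Lars2 (mean 843 TPM) far above every other mitochondrial member.

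Apart from Lars2, the mean levels of mitochondrial enzymes ran from 3.01 TPM for Wars2 (tryptophan) to 34.1 TPM for Tars2 (threonine). Wars2, the lowest member, was at 3.12, 3.32 and 3.15 TPM in sham and 3.31, 2.88 and 2.27 TPM after ischemia. Ears2 (glutamate), whose product on mitochondrial glutamine transfer RNA is finished by an amidotransferase, was at 7.28, 6.07 and 6.19 TPM in sham and 7.34, 5.26 and 4.44 TPM after ischemia. Nars2 (asparagine) was at 11.2, 8.34 and 9.19 TPM in sham and 9.57, 9.80 and 8.01 TPM after ischemia. In all 3 genes the groups overlapped.

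Lars2, the mitochondrial leucine enzyme, at chr9:123366927-123462666 of GRCm38, was at 756, 827 and 849 TPM in sham and 1064, 740 and 823 TPM after ischemia. Its level is uncertain, because it holds a 72-base stretch that is 98.6% identical to the gene model Gm15564, which was listed at 1844 to 2886 TPM. Gm15564 was, like Lars2, highest in hindlimb ischemia library 1, at 2886 TPM, and the part of shared reads in the level of Lars2 was not tested. Other uncertain levels are those of Iars, with 1656 bases at 96.0% identity to Gm4849, and of the 16 members whose exons overlap those of another gene. Among these, 487 exonic bases of Aimp2 (29.4%) lie over Eif2ak1, 2034 of Iars2 (22.9%) over Rab3gap2, and 195 bases are common to Hars and Hars2. These overlaps lie on opposite strands. On the same strand, 1326 exonic bases of Aars (14.3%) lie over Exosc6, which counting by strand would not separate. Exon overlaps included, 23 members were found to share a stretch of at least 50 bases at 95% identity with another gene, and stretches near that length could be missed. Eprs shares such stretches with many genes, and their part in its level was not tested. Whether reads were counted by strand is not given in the sources used here.

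The comparison asked which genes differ in these progenitors after hindlimb ischemia. By limma with Benjamini-Hochberg adjustment over 13787 genes, 0 of the 39 members and 0 of all genes (0%) passed an adjusted p of 0.05. The adjusted p of the members ran from 0.874, shared by 15 of them, to 0.98. At an unadjusted p under 0.05 there was 1 member, Pars2, lower after ischemia, against 3.89% of all genes (2.95% lower and 0.943% higher). In 2 members the libraries of the groups did not overlap, Pars2 and Hars2, both lower after ischemia, against 8.33% of all genes without overlap (6.68% lower and 1.65% higher). Neither share of members stands above its background. In the authors' deposited table the members' adjusted p ran from 0.75 for Dars to 0.998. The authors' log2 fold changes, taken as ischemia over sham, ran from -0.252 for Pars2 to 0.259 for Dars.

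Pars2, the mitochondrial proline enzyme, at chr4:106651069-106655282, was at 10.69, 10.03 and 9.395 TPM in sham and 8.64, 7.22 and 6.60 TPM after ischemia. Every ischemia library lay below every sham library, and the difference was -0.38 (SE 0.16) on the log2(TPM + 1) scale, with an unadjusted p of 0.0374 and an adjusted p of 0.874 by limma. Its unadjusted p was under 0.05 without ischemia library 1 and in no other fit that left out a library, where the difference ran from -0.48 to -0.31 over all 6 such fits. Hars2, the mitochondrial histidine enzyme, at chr18:36783008-36792562, was at 20.7, 17.8 and 18.7 TPM in sham and 16.9, 16.0 and 14.3 TPM after ischemia. Its groups did not overlap either, with a difference of -0.26 (SE 0.15) and an adjusted p of 0.874 by limma. Dars, the cytosolic aspartate enzyme, at chr1:128363707-128417368, was at 202, 168 and 169 TPM in sham and 199, 207 and 204 TPM after ischemia. Sham library 1 reached the level of the ischemia libraries while the other sham libraries lay below them, and the difference was 0.18 (SE 0.13, adjusted p 0.874 by limma). The cytosolic enzyme with the lowest log2 difference was Vars, at -0.26 (SE 0.22). Eprs was at 98.5, 78.0 and 81.0 TPM in sham and 111, 83.0 and 72.0 TPM after ischemia, a difference of 0.03 (SE 0.17) with overlapping groups. Of the scaffolds, Aimp1 was at 51.7, 52.4 and 55.0 TPM in sham and 62.7, 54.5 and 55.9 TPM after ischemia, and Aimp2 at 37.8, 31.1 and 31.3 TPM in sham and 32.3, 29.2 and 24.9 TPM after ischemia. Their log2 differences had opposite signs, 0.12 for Aimp1 and -0.21 for Aimp2, and neither passed the test. The groups overlapped in every member other than Pars2 and Hars2, and members whose libraries are not listed had log2 differences from -0.24 for Qars (glutamine) to 0.10 for Rars2 (mitochondrial arginine).

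The sign of part of the differences depended on the scaling of the libraries. On TPM as deposited, the median log2 difference was -0.09 over cytosolic enzymes, -0.15 over mitochondrial enzymes and -0.09 over all genes tested. The difference was below 0 for 15 of 20 cytosolic enzymes, 14 of 17 mitochondrial enzymes and 69.1% of all genes. Dividing each library by a median-of-ratios size factor moved the median of all genes by 0.10, to 0.01, and left 8 of 20 cytosolic, 11 of 17 mitochondrial and 46.8% of all genes below 0. Relative to the median of all genes, cytosolic enzymes were at 0.00 on TPM and 0.01 after that scaling, and mitochondrial enzymes at -0.06 under both. With size factors the unadjusted p was under 0.05 for 3 members, against 5.06% of all genes. These were Pars2, at -0.28, Dars, at 0.30 (p 0.0339), and Yars2, the mitochondrial tyrosine enzyme, at 0.24 (p 0.0306). Yars2 was at 33.4, 29.4 and 30.8 TPM in sham and 34.8, 34.9 and 33.1 TPM after ischemia, where only sham library 1 reached into the ischemia range, and it is named after its values were seen. By limma 0 members passed the adjusted threshold with size factors.

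**Figure D2:**
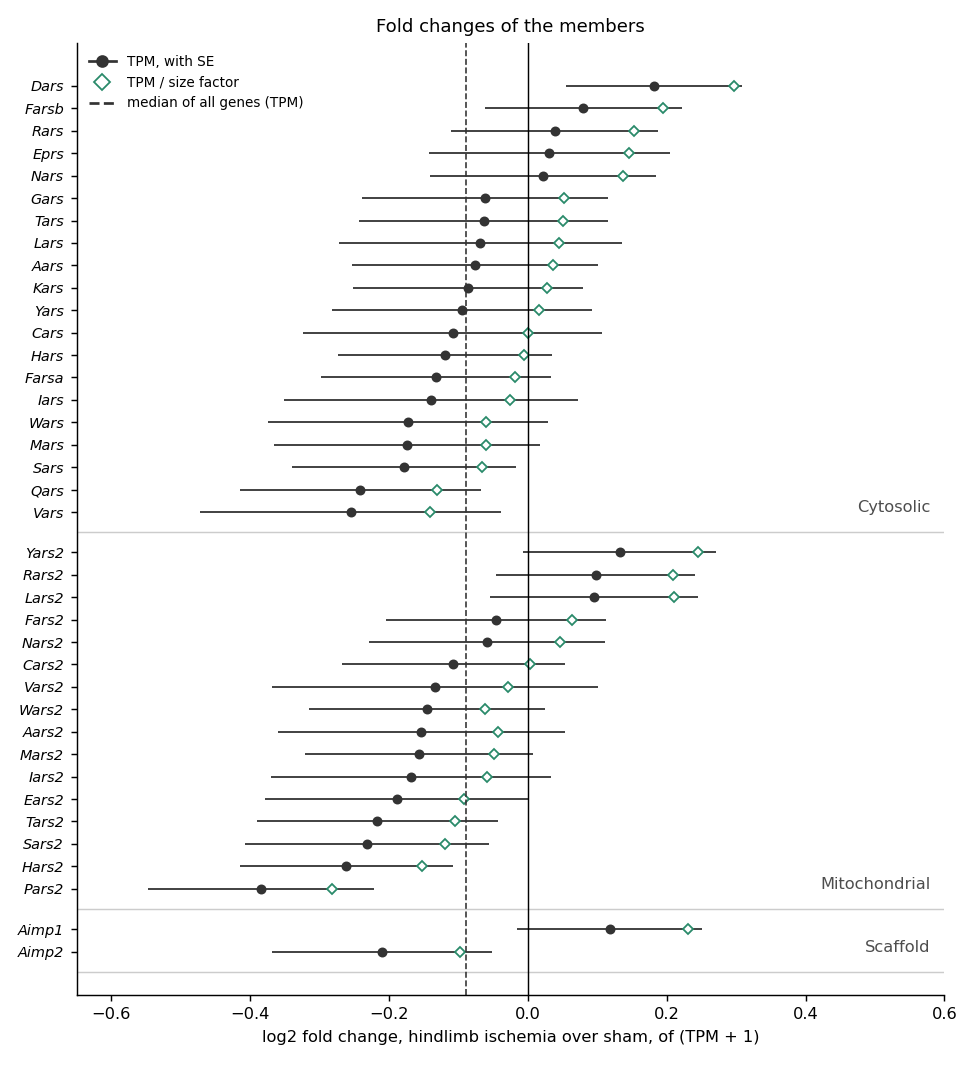
Log2 difference, hindlimb ischemia minus sham, for 38 members with their standard errors on log2(TPM + 1), and the value after size factor scaling, with a dashed line at the median of all genes on TPM. Most values move to the right after scaling, with Pars2 the lowest at -0.38 on TPM.

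Summed over the 20 cytosolic enzymes, expression was 1684 ± 248 TPM in sham and 1635 ± 294 TPM after ischemia (SD, n = 3 each). Summed over the mitochondrial enzymes without Lars2, it was 324.5 ± 30.9 TPM in sham and 300.3 ± 44.0 TPM after ischemia (SD, n = 3 each). The difference between the groups was smaller than the spread within them for both sums. After size factor scaling the mitochondrial sum was 308.5 ± 0.917 TPM in sham and 308.4 ± 17.9 TPM after ischemia.

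Libraries of the same group differed more than the groups did. The cytosolic sum was 1968, 1512 and 1572 TPM in sham libraries 1 to 3 and 1948, 1594 and 1364 TPM in hindlimb ischemia libraries 1 to 3. Size factors ran from 0.886 in ischemia library 3 to 1.166 in sham library 1. After scaling by them, the cytosolic sums were 1688, 1536 and 1564 TPM in sham and 1841, 1647 and 1540 TPM after ischemia. Ischemia library 1 was then the highest of the 6 libraries for 17 of 20 cytosolic enzymes (85%) and 7 of 17 mitochondrial enzymes (41.2%), against 19.3% of all genes tested. This held for all 12 cytosolic enzymes outside the multisynthetase complex and for 5 of the 8 within it. In the gene lists below, this share was 58.3% for mitochondrial translation, 42.9% for the Gcn2 and Atf4 response and 36.4% for amino acid transporters. It was 33.3% for cytosolic transfer RNA maturation, 15.4% for mitochondrial transfer RNA maturation and 12.5% for proofreading and selenocysteine genes. The median log2 difference between ischemia library 1 and ischemia library 3 was 0.35 over cytosolic enzymes, 0.12 over mitochondrial enzymes and 0.00 over all genes. It was 0.23 over mitochondrial translation genes, 0.23 over amino acid transporters and 0.17 over the Gcn2 and Atf4 response. Over the other gene lists it ran from -0.12 to 0.07. These 2 libraries were set against each other because they stood out, so the values are a description with no test. The same libraries differed in the share of TPM from the 13 mitochondrial messenger RNAs, 3.32% in ischemia library 1 and 6.34% in library 3, against 3.81% to 4.73% in sham. Ischemia library 2, at 5.45%, also lay above the sham range. Ischemia libraries 1 and 3 differed in erythroid markers as well, at 25.9 and 68.1 TPM in all, with library 2 at 85.2 TPM. The part of these differences in the synthetase levels was not tested.

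**Figure D3:**
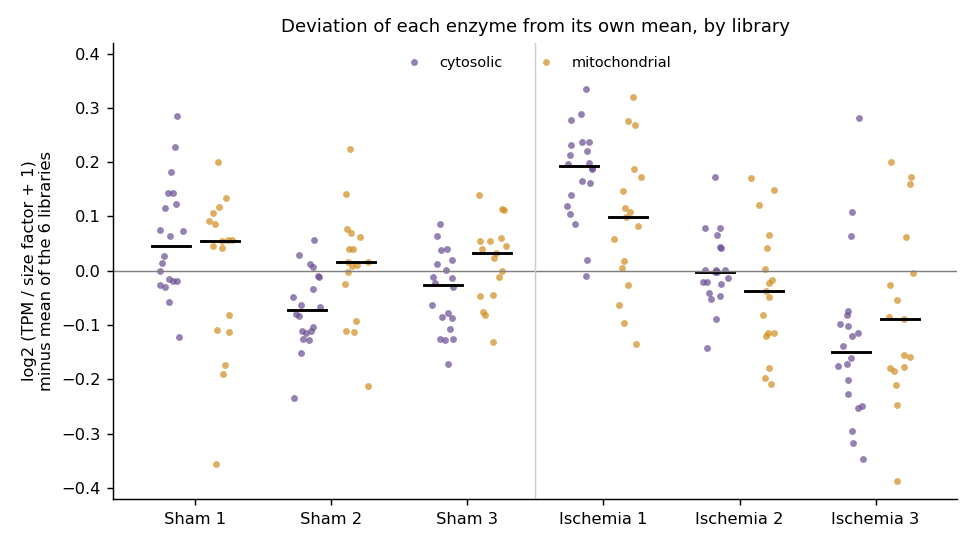
Deviation of each enzyme from its mean over the 6 libraries, in log2 units after size factor scaling, with 1 point per enzyme and a bar at the median of each compartment. The cytosolic median was 0.05 in sham library 1, 0.19 in ischemia library 1 and -0.15 in ischemia library 3.

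In 14 of 17 pairs of a cytosolic enzyme and its mitochondrial counterpart, the cytosolic gene was higher in every library. The exceptions were the pairs of Cars, Lars and Yars. The median of the mean ratios over the pairs was 4.11. The ratio is taken within a library, so a common scaling of that library does not move it. The groups did not overlap in 3 pairs, all with ratios higher after ischemia, out of 12 pairs with a higher mean ratio and 5 with a lower one. Eprs over Pars2 was 9.22, 7.77 and 8.62 in sham and 12.8, 11.5 and 10.9 after ischemia. Eprs over Ears2 was 13.5, 12.9 and 13.1 in sham and 15.1, 15.8 and 16.2 after ischemia, and Tars over Tars2 was 2.53, 2.37 and 2.19 in sham and 2.65, 2.64 and 2.62 after ischemia. The two-sided exact permutation p was 0.1 in each, the smallest that 3 against 3 allows, and 0.567 after Benjamini-Hochberg adjustment over the 17 pairs. The pairs share members, since Eprs enters with both Ears2 and Pars2, and Fars2 with both Farsa and Farsb. Pars2 by itself also did not overlap between the groups, and no share over other gene pairs stands beside the count of 3.

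**Figure D4:**
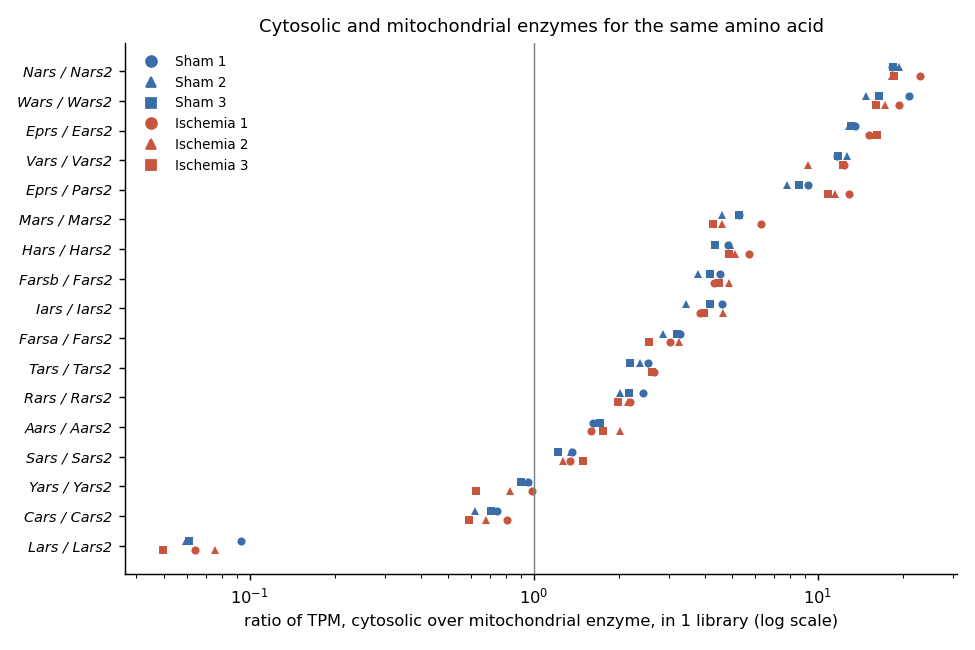
Ratio of cytosolic to mitochondrial TPM for each pair of enzymes, on a log axis, 1 point per library and group. The ratios of Eprs to Ears2, of Eprs to Pars2 and of Tars to Tars2 do not overlap between groups and are higher after ischemia.

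Because Atf4 activates synthetase genes through a composite site that it shares with C/EBP factors, promoters were searched for its letters, TGATGNAA, on both strands. RefSeq promoters of GRCm38.p6, 250 bases before to 50 after the start, were found for 29 of the 39 members. The string was in the promoters of 5 of 13 cytosolic enzymes, Aars, Gars, Iars, Tars and Yars, in 0 of 14 mitochondrial enzymes and 0 of 2 scaffolds, against 3.97% of all 32851 promoters. Its narrower form TGATGCAA was in 4 cytosolic promoters and 0.895% of all. A form with 1 more free base, TGATGNAAN, was in the same 5 promoters and 3.95% of all. The free base excludes almost no match, so that form adds no check. Those promoters are shown because they are the members that hold the string, with it or its reverse complement in capitals, each 5′ to 3′ on its gene's strand.
Aars, chr8:111033592-111033891, plus strand: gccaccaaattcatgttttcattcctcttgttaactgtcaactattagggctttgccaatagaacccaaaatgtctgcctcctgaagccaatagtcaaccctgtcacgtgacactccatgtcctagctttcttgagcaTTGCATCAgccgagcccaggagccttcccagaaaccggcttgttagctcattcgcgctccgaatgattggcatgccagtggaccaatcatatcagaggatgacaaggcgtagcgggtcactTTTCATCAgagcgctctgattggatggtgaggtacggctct
Gars, chr6:55037751-55038050, plus strand: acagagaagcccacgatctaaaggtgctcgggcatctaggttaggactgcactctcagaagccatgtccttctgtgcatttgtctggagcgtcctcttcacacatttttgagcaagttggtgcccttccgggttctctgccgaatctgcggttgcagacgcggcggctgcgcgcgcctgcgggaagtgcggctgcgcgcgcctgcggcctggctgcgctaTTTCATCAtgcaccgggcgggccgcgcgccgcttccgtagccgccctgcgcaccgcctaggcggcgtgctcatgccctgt
Iars, chr13:49681880-49682179, plus strand: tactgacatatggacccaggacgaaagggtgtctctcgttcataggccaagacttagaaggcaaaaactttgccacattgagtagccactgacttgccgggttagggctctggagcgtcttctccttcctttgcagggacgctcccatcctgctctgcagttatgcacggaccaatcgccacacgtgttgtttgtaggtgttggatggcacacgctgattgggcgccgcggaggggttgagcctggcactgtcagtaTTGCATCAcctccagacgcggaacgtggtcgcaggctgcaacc
Tars, chr15:11399609-11399908, minus strand: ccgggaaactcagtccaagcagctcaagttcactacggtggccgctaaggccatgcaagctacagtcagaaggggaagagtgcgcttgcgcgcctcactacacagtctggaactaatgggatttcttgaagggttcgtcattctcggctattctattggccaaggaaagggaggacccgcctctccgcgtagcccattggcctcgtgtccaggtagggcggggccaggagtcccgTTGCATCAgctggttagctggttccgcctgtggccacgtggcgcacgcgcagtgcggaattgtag
Yars, chr4:129189653-129189952, plus strand: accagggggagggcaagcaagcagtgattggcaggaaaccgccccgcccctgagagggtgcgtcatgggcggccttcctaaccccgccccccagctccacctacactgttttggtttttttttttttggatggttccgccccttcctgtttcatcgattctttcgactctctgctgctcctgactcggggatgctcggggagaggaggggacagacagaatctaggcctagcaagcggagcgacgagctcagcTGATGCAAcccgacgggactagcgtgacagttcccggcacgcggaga
Aars holds the string at both of its capital runs and the others at a single run. Of the other strings searched, which can overlap one another, CACGTG (E-box) was in 4 cytosolic and 1 mitochondrial promoters (7.15% of all promoters), GCGGAAG in 1 cytosolic, 6 mitochondrial and 1 scaffold promoters (5.77%), and GGAAGTG in 1 cytosolic and 3 mitochondrial promoters (11%). TTCNNGAA was in 1 cytosolic and 1 scaffold promoter (8.52%). TGACGTCA, the palindromic NRF1 string and ACTACANNTCC were in 0 member promoters (1.79%, 0.971% and 1.98% of all). The strings were chosen with the members in view, some after a first search, and a match is a run of letters, not a site shown to be bound.

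The 5 genes shown did not stand apart between the groups. Aars (alanine) was at 40.5, 33.6 and 36.1 TPM in sham and 43.6, 34.3 and 27.9 TPM after ischemia. Iars (isoleucine) was at 115, 67.3 and 80.2 TPM in sham and 97.2, 76.6 and 61.9 TPM after ischemia. Tars (threonine) was at 105, 78.5 and 76.6 TPM in sham and 101, 80.5 and 67.9 TPM after ischemia, and Yars (tyrosine) at 32.0, 28.2 and 27.7 TPM in sham and 34.2, 28.7 and 20.7 TPM after ischemia. Their groups overlapped in every case, and the log2 difference on TPM ran from -0.14 in Iars to -0.06 in Gars, turning above 0 with size factors in all but Iars. The authors' deposited values, taken as ischemia over sham, were 0.037 in Aars, 0.049 in Gars, 0.043 in Tars, 0.023 in Yars and -0.025 in Iars.

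Of 28 other genes of the Gcn2 and Atf4 response, 21 were tested and 0 passed the adjusted threshold by limma without covariates. At an unadjusted p under 0.05, 3 were lower and 0 higher after ischemia, against 2.95% lower and 0.943% higher over all genes, and the median log2 difference was -0.12 (-0.01 with size factors). Ddit3, a transcription factor of prolonged stress, was at 8.91, 10.1 and 8.60 TPM in sham and 5.56, 5.35 and 7.64 TPM after ischemia (-0.52, unadjusted p 0.0129, adjusted p 0.874 by limma). Its exons share 68 bases with those of Mars on the opposite strand. Ppp1r15a, a subunit that restores translation by dephosphorylating eIF2 alpha, was at 28.5, 26.2 and 21.1 TPM in sham and 24.2, 13.4 and 12.6 TPM after ischemia (-0.62, unadjusted p 0.022, adjusted p 0.874 by limma). Sesn2, a leucine sensor named after its value was seen, was at 8.39, 7.90 and 7.59 TPM in sham and 6.05, 6.33 and 4.62 TPM after ischemia. Ddit3 and Sesn2 did not overlap between the groups and Ppp1r15a did, beside 6.68% of all genes that were lower without overlap. Atf4 itself was at 116, 103 and 106 TPM in sham and 119, 105 and 98.1 TPM after ischemia, with overlapping groups.

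In the other lists 0 genes passed the adjusted threshold by limma without covariates, and counts at an unadjusted p under 0.05 stand beside 3.89% of all genes. Of 11 amino acid transporters tested 1 reached that level, Slc43a1, a carrier of large neutral amino acids, at 9.583, 7.534 and 8.004 TPM in sham and 7.76, 5.55 and 4.56 TPM after ischemia. Slc7a7, a carrier of cationic amino acids, was at 7.93, 6.20 and 9.29 TPM in sham and 7.46, 5.55 and 5.60 TPM after ischemia. Both overlapped between the groups, and the median log2 difference of the list was -0.10. Among 12 genes of mitochondrial translation 0 reached it, with a median of -0.11. The smallest p there were those of Mtrf1l, a peptide release factor, at -0.26, and Mtfmt, which formylates the initiator methionine, at -0.20.

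Among 13 genes of mitochondrial transfer RNA maturation 1 reached that level, Gtpbp3, a modifier of the wobble base, at 10.5, 7.98 and 8.84 TPM in sham and 7.51, 7.21 and 5.30 TPM after ischemia, without overlap. Cdk5rap1, which modifies a base beside the anticodon, had a log2 difference of -0.37 with overlapping groups, and the median of the list was -0.16. Without overlap, 2 genes of this list were lower, Gtpbp3 among them, and 0 higher, against 6.68% lower and 1.65% higher over all genes. Of 27 genes of cytosolic transfer RNA maturation, Rpp40 was higher and Tsen54 lower at that level, with a median of -0.12. Rpp40, a subunit of RNase P, was at 6.29, 5.26 and 4.53 TPM in sham and 6.96, 6.99 and 7.83 TPM after ischemia, without overlap. The cytosolic list held 1 higher gene without overlap, Rpp40, and 2 lower ones. Tsen54, a subunit of the splicing endonuclease, was at 30.9, 25.1 and 29.1 TPM in sham and 26.1, 20.3 and 19.1 TPM after ischemia, where ischemia library 1 reached into the sham range. Of 8 genes of proofreading and selenocysteine transfer RNA synthesis 0 reached it, with a median of 0.01. The smallest p there were those of Pstk, the kinase of seryl transfer RNA for selenocysteine, at 0.12, and Sephs2, which makes selenophosphate, at -0.11 (0.004 with size factors).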

How the data were processed

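Messenger RNA of sorted bone marrow progenitors was measured in 6 libraries, grouped by the sample titles. The cells were sorted into extraction buffer and RNA was extracted with a PicoPure kit, per the labels' protocols. The deposited table gives TPM per library, and the authors' log2 fold change and adjusted p-value for each gene, per the file headers. Reads were placed on mm10, per the submitters' processing notes. How they were aligned, counted, annotated and tested is not given in the sources used here. The deposited log2 fold change is sham over hindlimb ischemia, judged by its Spearman correlation of -0.965 across genes with the TPM ratio of ischemia over sham. A further 6 per-sample columns of a short list of 34 genes, none of them a member, were not used.

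Genes that reached 1 TPM in 3 or more libraries (13787) were fitted on log2(TPM + 1) with limma 3.58.1 in R 4.3.3 (trend, robust empirical Bayes, no covariate, 4 residual degrees of freedom), and Benjamini-Hochberg adjustment ran over all of them. A pseudocount of 1 makes the fold changes of low genes smaller. TPM times the GENCODE M21 exon length came out as whole reads for 14448 genes (59.7%, tolerance 0.001 reads, every library), and 9757 others were whole up to a common factor. By voom on these reads 0 genes passed the adjusted threshold. Gene positions are GENCODE M21 on GRCm38. Shared stretches were found with blastn 2.17.0 (at least 50 bases at 95% identity), a minimum that was lowered after the Lars2 stretch was seen. The search also masked simple sequence and set a strict e-value limit, so stretches near 50 bases could be missed.

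The members, gene lists and tests were chosen with earlier results of these data known. Library values are given for members with an unadjusted p under 0.05 or groups that do not overlap, the 4 highest and 4 lowest by mean TPM, the largest difference of each compartment, Gars, Kars, Eprs, Aimp1 and Aimp2, and from each gene list the 2 genes with the smallest p are named. Aars, Iars, Tars, Yars, Yars2, Sesn2 and Atf4 were added after their values were seen. Of the members, 1 is not reported here by itself or in a pair and enters the counts, medians and sums only. The ratios of pairs, the order of the libraries and the promoter strings were also added with the values in view. Alternatives were other scalings, filters, pseudocounts and variance models, voom, a block on the replicate number, and fits that drop each library in turn.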

Additional observations from a re-analysis of the deposited data

How the results depend on the processing

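In every alternative 0 members passed an adjusted p of 0.05. The smallest adjusted p of a member in any of them was 0.199 by limma, for Vars without hindlimb ischemia library 1. Over 31 named genes and 16 alternatives, 462 of 495 values kept their direction and side of the threshold. Over all genes, the number past the adjusted threshold was 0 as reported, 1 without a variance trend, 69 with the replicate block (17 higher, 52 lower) and 0 to 33 when libraries were left out, with 33 without ischemia library 1 and 1 without ischemia library 2 or 3. Members with an unadjusted p under 0.05 numbered 2 with quantile normalization (5.15% of all genes), 3 with size factors (5.06%), 2 with voom (5.58%), 2 with the block (Pars2 and Vars, 13.7%) and 0 to 6 when libraries were left out. The 6 arose without ischemia library 1, where 19.4% of all genes reached that level. Pars2 was among them but did not reach that level when any of the other 5 libraries was left out, and Dars did without sham library 1.

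The median over cytosolic enzymes was 0.0217 with size factors and ran from -0.238 to 0.0734 with libraries left out, above 0 without sham library 1 or ischemia library 3. The median over mitochondrial enzymes ran from -0.25 to -0.04. With quantile normalization the log2 difference was 0.0255 in Aars, 0.049 in Nars2 and 0.0049 in Yars. With size factors it was 0.0356 in Aars, 0.0524 in Gars, 0.0279 in Kars, 0.0459 in Nars2, 0.004 in Sephs2, 0.0503 in Tars and 0.0155 in Yars, and with voom 0.0093 in Gars, 0.0054 in Nars2 and 0.0078 in Tars. With libraries left out it ran from -0.237 to 0.0749 in Aars, -0.14 to 0.17 in Eprs, -0.231 to 0.0835 in Gars, -0.308 to 0.0718 in Iars, -0.226 to 0.0347 in Kars, -0.0534 to 0.208 in Lars2, -0.12 to 0.16 in Nars, -0.145 to 0.0495 in Nars2, -0.213 to 0.0824 in Tars and -0.25 to 0.10 in Yars. Ppp1r15a passed the adjusted threshold with the block (-0.62, adjusted p 0.0302 by limma). The cause was not tested.

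The labels do not say whether libraries of the same number form pairs. Deviations of same-numbered libraries correlated across genes at 0.389, 0.182 and 0.0757, and those of different numbers at -0.434 to 0.383. Ischemia library 3 correlated best with sham library 2 (0.383). These correlations do not settle whether the numbers pair the libraries. With 3 libraries a group, small differences were not detectable. Precision did not follow the number of reads alone. On log2(TPM + 1), the SE was 0.15 in Rars (3595 to 4837 reads) and 0.22 in Vars (11952 to 16417). It was 0.17 in Wars2, the member with the fewest reads (314 to 384), where the pseudocount of 1 makes differences and their SE smaller. With a pseudocount of 0.1 the log2 difference moved from -0.1455 to -0.1917 in Wars2 and from -0.2551 to -0.2571 in Vars.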
